A study of Mus musculus with 6 samples.

Results

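The NF-kB pathway genes Rela, Relb, Nfkb1, Nfkb2, Ikbkb, Chuk, Nfkbia, Nfkbie, Nfkbiz and Tnfaip3 were compared between smoke-exposed mouse lungs with and without the peptide SS-31. The 10 genes were taken by symbol and matched to Ensembl identifiers through GENCODE M21. All 10 were found among the 55573 genes of the count table, and all 10 were among the 16965 genes with enough counts to be tested. Lungs came from wild type C57BL/6 mice of 9 to 10 weeks. In the CS group (3 libraries) the mice breathed cigarette smoke in 2 sessions of 75 min per day, on 5 days per week over 4 weeks. In the SS-31H_CS group (3 libraries) they were exposed to smoke and received SS-31, a mitochondria-targeted antioxidant, at 5 mg/kg every day. Both groups were thus smoke-exposed, and lungs without smoke were not analysed here. The labels give the smoke schedule for CS alone and do not say that each library came from a different mouse, so p-values measure the spread between libraries.

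NF-kB is a family of dimeric transcription factors that are held in the cytoplasm by inhibitor (IkB) proteins. In the canonical branch a kinase complex phosphorylates the inhibitors, which are then degraded, and dimers containing RelA enter the nucleus. In the non-canonical branch the kinase encoded by Chuk drives processing of the Nfkb2 product, which pairs with RelB. Several NF-kB target genes encode inhibitors of the pathway and so form negative feedback loops. In the lung the pathway is known for driving cytokine and adhesion gene expression in macrophages, epithelium and endothelium exposed to smoke. The mRNA levels reported here do not measure phosphorylation, degradation or nuclear entry of these proteins.

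Total counts ran from 15611925 to 17360052 per library. CS replicate 3 stood apart from the other libraries on the first principal component of log2 CPM (read counts scaled by TMM-adjusted library size), which held 46.3% of the variance. It was at -60.9, with the other CS libraries at -14.6 and -7.42 and the SS-31H_CS libraries, replicates 1 to 3, at 12.5, 25.5 and 44.9. The groups thus did not overlap on this component, and SS-31H_CS replicate 3 lay at the opposite end from CS replicate 3. The summed level of 10 B cell markers was 81.4 CPM in CS replicate 3 and 308 to 445 CPM in the other 5 libraries. The summed level of 10 neutrophil markers was 570 CPM in SS-31H_CS replicate 3 and 1902 to 3721 CPM in the others. Lung identity was checked on defining genes: the 10 alveolar type 2 markers summed to 23648 to 30614 CPM, and of 10 alveolar type 1 markers Pdpn alone was at 0 in every library. Ager, of the same list, was at 1860 to 3150 CPM, and the cause of the 0 for Pdpn was not tested.

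None of the 10 NF-kB genes passed the test for a difference between the lungs with and without SS-31. In the edgeR quasi-likelihood fit, with p-values adjusted by Benjamini-Hochberg across the 16965 genes, 0 of 10 had an adjusted p under 0.05. Of all genes tested, 0.153% did (0.0707% higher and 0.0825% lower in SS-31H_CS). At an unadjusted p under 0.05 the count was 0 of 10, against 18.2% of all genes, and DESeq2 called 0 of 10, against 5.59% of all genes. The groups overlapped in each of the 10 genes, whereas 26.1% of all genes tested had groups that did not overlap. The log2 fold changes (SS-31H_CS over CS) were positive in 5 genes and negative in 5, from -0.31 to 0.24. Their median was -0.02, beside 0.01 over all genes tested. In whole lung, fewer cells of a type and less RNA per cell cannot be told apart.

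The direction of these small differences was not stable in most of the genes. Leaving out a single library turned the sign in 8 of the 10. The 2 exceptions were Nfkbia and Nfkbiz, which were negative in all 17 alternative analyses. Over all 6 libraries the range was wide in Relb, Nfkb2, Nfkbia, Nfkbie, Nfkbiz and Tnfaip3, narrower in Chuk and Rela, and narrowest in Nfkb1 and Ikbkb. Within a group this order did not always hold. The coefficient of variation of Nfkbie was 7.12% in CS and 46.2% in SS-31H_CS, and that of Chuk 7.09% and 20.8%. In Nfkb1 it was 8.32% and 5.99%, and in Ikbkb 8.15% and 7.27%.

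**Figure D1:**
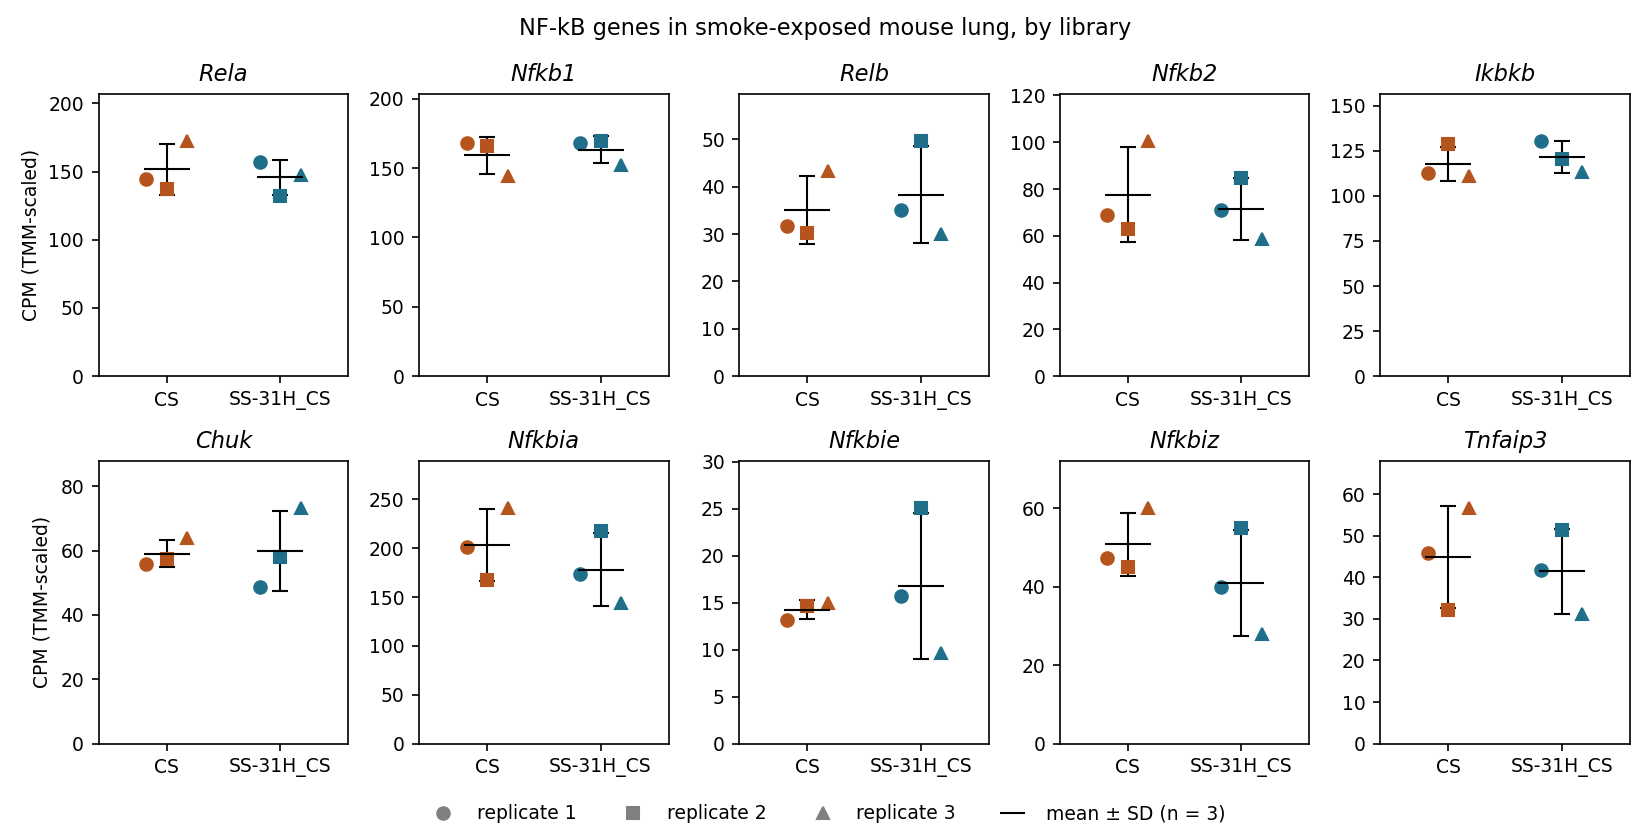
Each panel plots the level of 1 gene in CPM (y axis, from 0) in the 3 CS and 3 SS-31H_CS libraries, with 1 symbol shape per replicate number and the bars as mean ± SD (n = 3). The groups overlap in every panel, and in Relb, Nfkb2, Nfkbia, Nfkbie, Nfkbiz and Tnfaip3 SS-31H_CS replicate 3 is the lowest of the 6 libraries.

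Rela encodes the transactivating subunit of the canonical dimer (ENSMUSG00000024927, GRCm38 chromosome 19, 5637483 to 5648130). In order of replicate, from 1 to 3, its levels were 145, 137 and 173 CPM in CS. In the same order they were 157, 132 and 148 CPM in SS-31H_CS, and values of other genes are given likewise. CS replicate 3 was the highest library, the other 5 lay between 132 and 157 CPM, and the groups overlapped. Between the groups the log2 fold change was -0.06 (SE 0.13, 95% interval -0.35 to 0.24, adjusted p = 0.839 by edgeR). It was 0.04 without CS replicate 3.

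Nfkb1 encodes the partner of RelA in the canonical dimer (ENSMUSG00000028163, chromosome 3, 135584655 to 135691547). It had 168, 166 and 144 CPM in the CS libraries and 168, 170 and 152 CPM in the SS-31H_CS libraries. Here CS replicate 3 was the lowest of the 6, the reverse of its place for Rela. Its log2 fold change was 0.04 (SE 0.11, 95% interval -0.22 to 0.29, adjusted p = 0.887), and -0.04 without CS replicate 3.

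Relb encodes the subunit of the non-canonical dimer (ENSMUSG00000002983, chromosome 7, 19606217 to 19629438). Its values were 31.8, 30.1 and 43.4 CPM in CS and 35.2, 49.7 and 29.99 CPM in SS-31H_CS. SS-31H_CS held both the highest library (replicate 2) and the lowest (replicate 3). The log2 fold change of 0.13 (SE 0.21, 95% interval -0.36 to 0.61, adjusted p = 0.781) became -0.11 without SS-31H_CS replicate 2. Nfkb2, whose product is processed into the RelB partner (ENSMUSG00000025225, chromosome 19, 46304320 to 46312385), was at 68.8, 63.1 and 101 CPM in CS and 71.1, 84.8 and 58.5 CPM in SS-31H_CS. CS replicate 3 was the highest and SS-31H_CS replicate 3 the lowest. For Nfkb2 the log2 fold change was -0.12 (SE 0.20, 95% interval -0.59 to 0.35, adjusted p = 0.784), and 0.11 without CS replicate 3. Exons of genes on the opposite strand overlap 18.1% of the exon bases of Nfkb2. The strand setting of the counting is not given in the sources used here, so how reads in these shared bases were counted is not known. The other 9 genes have no such overlap.

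Neither of the kinase genes passed the test. Ikbkb, the catalytic kinase of the canonical branch (ENSMUSG00000031537, chromosome 8, 22659212 to 22706589), was at 113, 129 and 111 CPM in CS and 131, 121 and 113 CPM in SS-31H_CS. Its highest library exceeded its lowest by 1.18-fold, the narrowest range of the 10 genes, beside a median of 1.42-fold over the 10854 tested genes averaging 10 CPM or more. Ikbkb had a log2 fold change of 0.05 (SE 0.11, 95% interval -0.21 to 0.30, adjusted p = 0.850). Without SS-31H_CS replicate 1 it was -0.02. Chuk, the second catalytic kinase (ENSMUSG00000025199, chromosome 19, 44073335 to 44107480), was at 55.8, 57.5 and 63.8 CPM in CS. In SS-31H_CS it was at 48.6, 57.9 and 73.2 CPM, so this group held both the lowest and the highest library. Chuk had a log2 fold change of 0.02 (SE 0.15, 95% interval -0.33 to 0.37, adjusted p = 0.955), and -0.15 without SS-31H_CS replicate 3.

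Nfkbia encodes IkB alpha, the classical inhibitor that is degraded on activation and resynthesised as an NF-kB target (ENSMUSG00000021025, chromosome 12, 55489410 to 55492647). It was at 202, 167 and 241 CPM in CS and 173, 218 and 144 CPM in SS-31H_CS. CS replicate 3 and SS-31H_CS replicate 2 were the highest and SS-31H_CS replicate 3 the lowest, and the groups overlapped. The means were 203 ± 36.8 and 178 ± 37.2 CPM (SD, n = 3), with a log2 fold change of -0.19 (SE 0.19, 95% interval -0.62 to 0.24, adjusted p = 0.614). The interval covers folds from 0.650 to 1.18. Leaving out CS replicate 3 gave -0.05, and leaving out SS-31H_CS replicate 2 gave -0.36.

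The proximal promoter of Nfkbia is shown because Nfkbia, the most abundant member, is a textbook NF-kB target. The sequence is from RefSeq (GRCm38.p6), minus strand, chr12:55492648-55492897, the 250 bases before the transcript start. Capitals mark the 1 match to the 10-base kB consensus, searched by that name on both strands.

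Nfkbia: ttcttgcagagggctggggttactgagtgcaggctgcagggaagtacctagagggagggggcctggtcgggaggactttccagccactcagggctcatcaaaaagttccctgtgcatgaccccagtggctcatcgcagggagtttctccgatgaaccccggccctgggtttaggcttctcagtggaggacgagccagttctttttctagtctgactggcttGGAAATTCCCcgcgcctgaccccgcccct

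The same search was run on all RefSeq promoter windows of that length. Of the 10 genes, 6 had a window, and 4 of the 6 held at least 1 match: Nfkbia, Nfkb2, Nfkbie and Tnfaip3. Rela and Chuk had windows without a match. Among all 27025 genes with a window, 8.23% held a match. Of the NF-kB target genes listed for the comparison below, 10 of the 24 with a window did (41.7%). The matches nearest to a transcript start in the other 3 genes are shown for comparison, with up to 10 bases of flank in lower case and the matching bases in capitals. They lie at chr10:19015411-19015432 (minus strand), chr19:46304716-46304736 (plus strand) and chr17:45555584-45555613 (plus strand).
Tnfaip3: aatttccatcGGAAATCCCCct
Nfkb2: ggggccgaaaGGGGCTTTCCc
Nfkbie: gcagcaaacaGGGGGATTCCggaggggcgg
The matches in Nfkbia, Tnfaip3, Nfkb2 and Nfkbie begin 29, 12, 11 and 106 bases before the start. A match is a description of these letters and not a measured binding site, and the one shown for Nfkb2 also falls in an annotated exon.

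Nfkbie encodes IkB epsilon, another inhibitor degraded on activation (ENSMUSG00000023947, chromosome 17, 45555703 to 45563169). It was at 13.1, 14.7 and 15.004 CPM in CS. In SS-31H_CS it was at 15.7, 25.1 and 9.65 CPM, with replicates 1 and 2 above and replicate 3 below all of the CS libraries. This was the widest range of the 10 genes, with the highest library 2.60-fold above the lowest. The log2 fold change of 0.24 (SE 0.31, 95% interval -0.47 to 0.94, adjusted p = 0.706) became -0.17 when SS-31H_CS replicate 2 was left out and 0.51 when SS-31H_CS replicate 3 was.

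Nfkbiz encodes IkB zeta, an atypical nuclear member of the family that is itself strongly inducible and can also activate genes (ENSMUSG00000035356, chromosome 16, 55811375 to 55838899). It was at 47.3, 45.0 and 60.1 CPM in CS and 40.0, 54.9 and 28.1 CPM in SS-31H_CS. It had the most negative log2 fold change of the 10, at -0.31 (SE 0.23, 95% interval -0.84 to 0.22, adjusted p = 0.505). Of the SS-31H_CS libraries only replicate 2 reached into the CS range. Leaving out SS-31H_CS replicate 2 gave -0.58 and leaving out SS-31H_CS replicate 3 gave -0.10. The adjusted p ran from 0.288 to 0.851 over the alternatives.

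Tnfaip3 encodes a ubiquitin-editing enzyme that shuts off signalling upstream of the kinases (ENSMUSG00000019850, chromosome 10, 19000910 to 19015657). It was at 45.8, 32.2 and 56.6 CPM in CS and 41.8, 51.4 and 31.1 CPM in SS-31H_CS. Each group spanned nearly the same range. Its log2 fold change was -0.11 (SE 0.24, 95% interval -0.66 to 0.43, adjusted p = 0.822), and 0.08 without CS replicate 3.

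**Figure D2:**
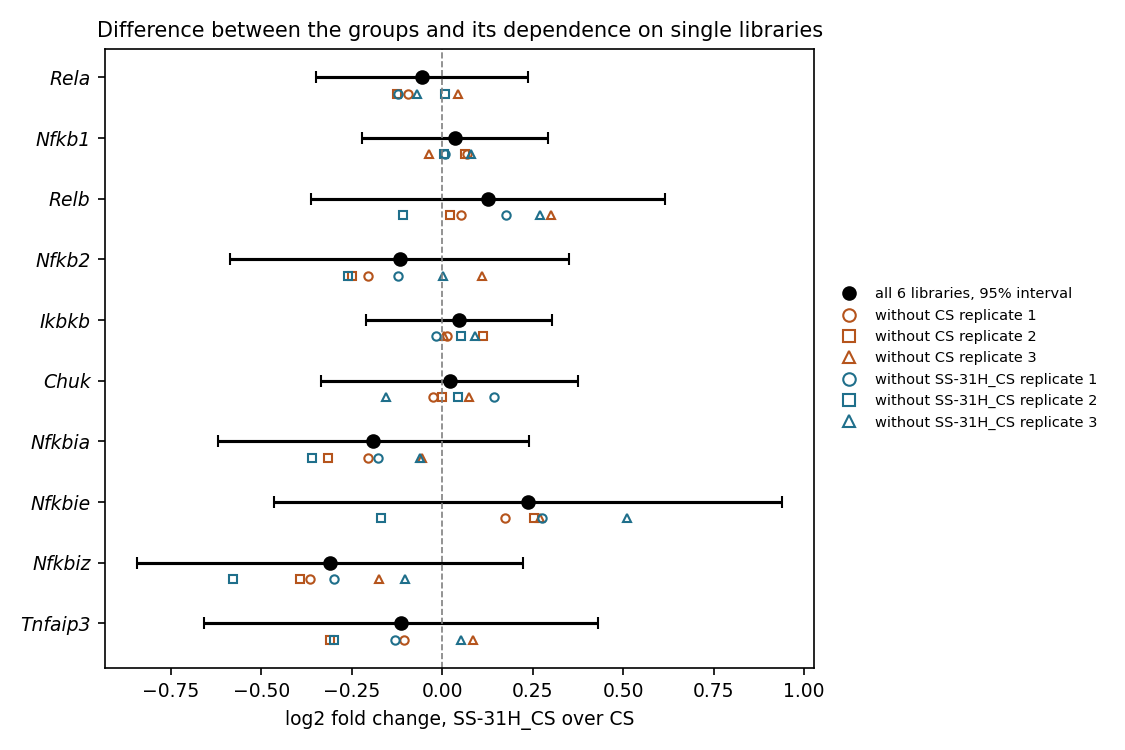
Filled points are the log2 fold change of each gene (x axis, SS-31H_CS over CS) with its 95% interval from the fit to all 6 libraries, and open symbols give the value with 1 library left out. Every interval includes 0, and the open symbols lie on 1 side of 0 in Nfkbia and Nfkbiz alone.

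The intervals show how large a difference these libraries could still hold. For Nfkb1, Ikbkb and Rela the bounds were within 0.785-fold and 1.23-fold. For Nfkbiz they ran from 0.558-fold to 1.17-fold, and for Nfkbie from 0.724-fold to 1.92-fold.

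The order of the libraries was alike in 6 genes. Relb, Nfkb2, Nfkbia, Nfkbie, Nfkbiz and Tnfaip3, a split from the other 4 made after their values were seen, had CS replicate 3 as the highest CS library in 6 of 6. SS-31H_CS replicate 2 was the highest SS-31H_CS library in 6 of 6, and SS-31H_CS replicate 3 the lowest of all libraries in 6 of 6. These counts partly restate the split, and the share of all genes tested with this order was not counted. SS-31H_CS replicate 3 was also the lowest library in 16 of 33 other pathway genes and 16 of 33 NF-kB target genes, lists described below. How often it was the lowest over all genes tested was not counted. Relative to each gene's own mean over the 6 libraries, the mean log2 level of the 6 genes was 0.33 in CS replicate 3 and 0.37 in SS-31H_CS replicate 2. It was -0.45 in SS-31H_CS replicate 3 and between -0.17 and -0.02 in the remaining 3. Rela, Nfkb1, Ikbkb and Chuk had no such shared order: CS replicate 3 was at 0.22 in Rela and -0.16 in Nfkb1, and SS-31H_CS replicate 3 at 0.31 in Chuk and -0.08 in Nfkb1. No library was the lowest in more than 2 of the 4. The ratio of highest to lowest library was 1.66 to 2.60 in the first 6 genes and 1.18 to 1.51 in the other 4.

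**Figure D3:**
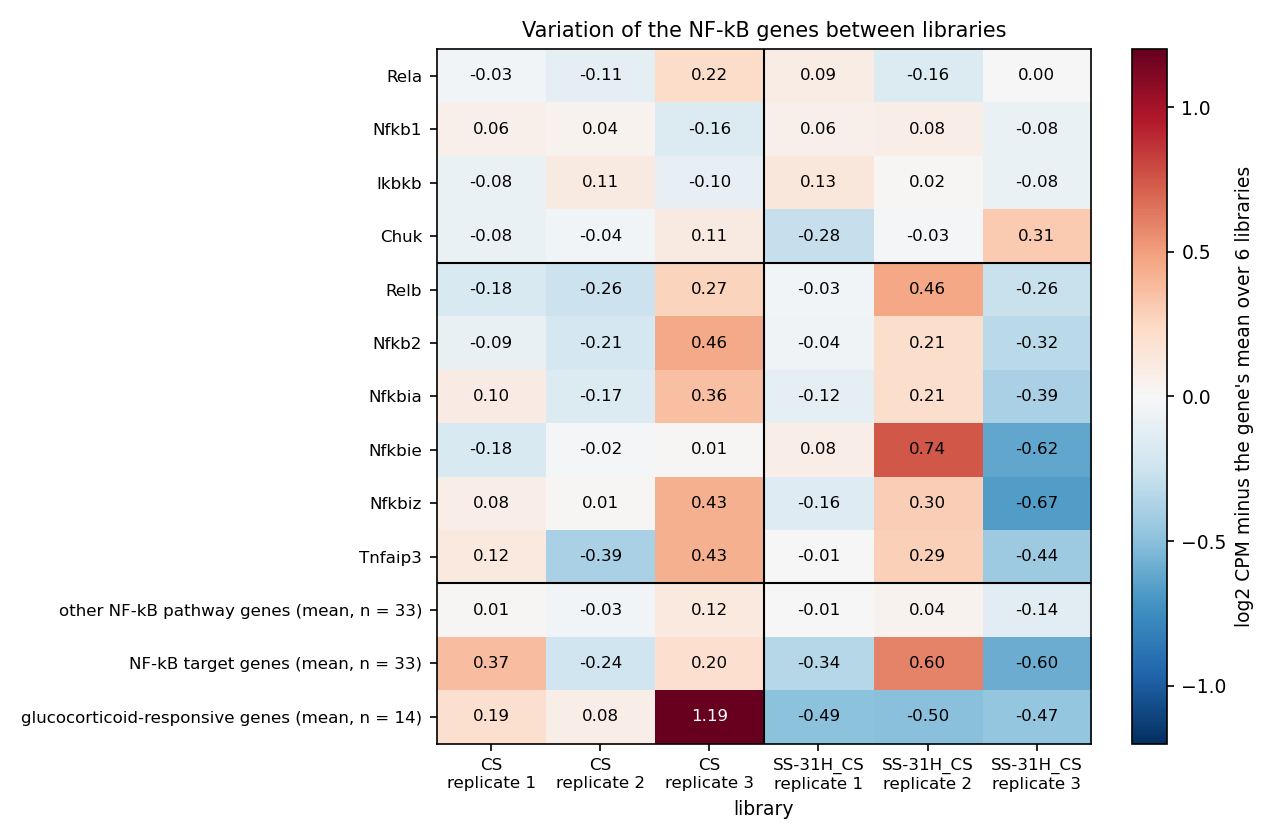
Colours and numbers give the log2 CPM of each gene (rows) in each library (columns) minus its mean over the 6 libraries, and the bottom 3 rows the mean over the tested genes of a list. The 6 genes of the middle block are high in CS replicate 3 (except Nfkbie at 0.01) and in SS-31H_CS replicate 2, and low in SS-31H_CS replicate 3.

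Levels of different genes were compared per length, as the deposited FPKM (read fragments scaled by exon length and depth), over all 6 libraries. Nfkbia was the most abundant member at 118 ± 21.3 FPKM (SD, n = 6), followed by Rela at 48.2 ± 3.47 FPKM, and the ranges of these genes did not overlap each other or any other member. Nfkb2 (16.2 ± 3.21 FPKM), Nfkb1 (13.4 ± 1.203 FPKM) and Chuk (11.7 ± 1.62 FPKM) came next, then Relb (9.45 ± 2.23 FPKM) and Nfkbiz (9.13 ± 2.20 FPKM). Ikbkb (6.26 ± 0.563 FPKM), Tnfaip3 (5.95 ± 1.38 FPKM) and Nfkbie (5.12 ± 1.85 FPKM) were the lowest. From Nfkb2 down, the ranges of neighbours in this order overlapped. This order depends on the length used. These FPKM divide by all annotated exon bases of a gene, which are 19078 in Ikbkb and 12061 in Nfkb1, against 3580 and 4117 bases in their principal coding transcripts. Per kilobase of the principal transcript, a calculation added after the FPKM were seen, Nfkb1 rose in rank from the fourth to the third (39.1 CPM per kilobase) and Ikbkb from the eighth to the fourth (33.4 CPM per kilobase). Nfkbia and Rela kept the top places at 121 and 54.7 CPM per kilobase.

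**Figure D4:**
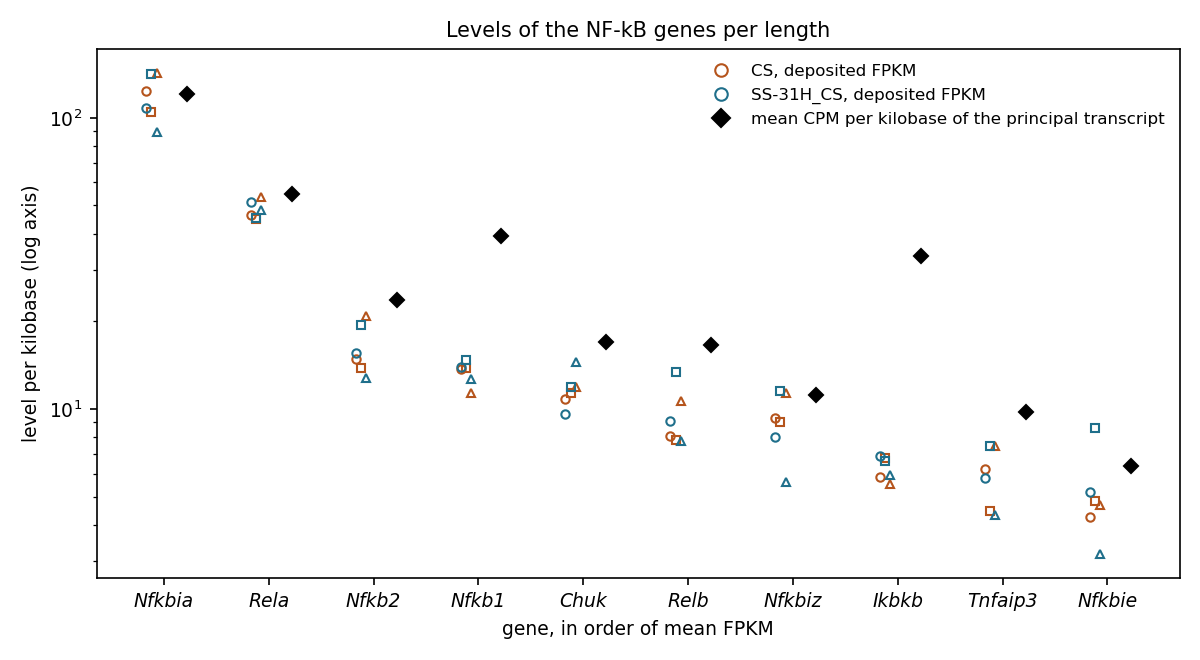
Open symbols are the deposited FPKM of each gene in each library and diamonds the mean CPM per kilobase of the principal coding transcript, both on 1 log axis. Nfkbia and Rela are the highest by either length, while Ikbkb moves from 6.26 to 33.4.

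The genes around these members were read from a list of 34 other pathway genes, of which 33 were tested (Traf5 was too low). By edgeR 0 of 33 changed, with 4 below an unadjusted p of 0.05 (1 higher, 3 lower), against 18.2% of all genes, and DESeq2 called 1, against 5.59%. The groups did not overlap in 6 of 33 (2 higher, 4 lower), against 26.1% of all genes. The median log2 fold change was -0.05. The remaining subunit gene Rel had 19.2, 19.9 and 15.5 CPM in CS and 16.9, 24.0 and 20.3 CPM in SS-31H_CS (0.16, SE 0.17, adjusted p = 0.638). The inhibitor gene Nfkbib differed by -0.22 on the log2 scale (adjusted p = 0.587), and by 0.02 with CS replicate 3 left out. Ikbkg, the regulatory subunit of the kinase complex, differed by 0.01 (adjusted p = 0.969), and by -0.08 or -0.16 with CS replicate 3 or SS-31H_CS replicate 3 left out. Bcl3, an atypical IkB protein gene, had CS replicate 3 highest and SS-31H_CS replicate 3 lowest, as in Nfkbia, at 40.5, 33.2 and 55.1 CPM in CS and 34.3, 42.0 and 22.5 CPM in SS-31H_CS (-0.38, adjusted p = 0.454).

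Traf1, a signalling adaptor and NF-kB target, had the lowest p of this list. It was at 73.7, 68.3 and 51.5 CPM in CS and 100, 84.6 and 96.5 CPM in SS-31H_CS, so the groups did not overlap (log2 fold change 0.54, SE 0.15, adjusted p = 0.144 by edgeR and 0.0407 by DESeq2). Ripk1, the kinase that relays TNF receptor signals, was at 53.6, 60.1 and 68.8 CPM in CS and 45.3, 48.8 and 44.5 CPM in SS-31H_CS, again without overlap (-0.40, SE 0.12, adjusted p = 0.161). Tbk1 (-0.28) and the ubiquitin ligase gene Traf6 (-0.20) were lower without overlap at adjusted p of 0.258 and 0.326, and Nkiras1, which encodes an IkB-interacting Ras-like protein, was higher without overlap (0.22, adjusted p = 0.360). Birc3, an inhibitor of apoptosis gene, overlapped (-0.39, adjusted p = 0.266). None of these 6 passed the threshold by edgeR.

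Known NF-kB target genes were listed as a readout downstream of these proteins. Of 36 listed, 33 were tested and 0 changed by edgeR. At an unadjusted p under 0.05 there were 8 (4 higher, 4 lower), against 18.2% of all genes, and DESeq2 called 5, against 5.59%. The groups did not overlap in 3 of 33, against 26.1% of all genes. The median log2 fold change was -0.26, with 14 positive and 19 negative. The spread between libraries was wide: the median ratio of highest to lowest library was 5.02, beside 1.39 for the other pathway genes and 1.601 for all genes tested. As in Relb, Nfkb2, Nfkbia, Nfkbie, Nfkbiz and Tnfaip3, SS-31H_CS replicate 3 had the lowest mean relative log2 level (-0.60) and SS-31H_CS replicate 2 the highest (0.60). CS replicate 1 was at 0.37 and CS replicate 3 at 0.20.

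Single inflammatory targets were often set by 1 library. The cytokine gene Tnf was at 4.49, 1.55 and 3.83 CPM in CS and 2.42, 9.23 and 2.53 CPM in SS-31H_CS (0.52, adjusted p = 0.663; -0.41 without SS-31H_CS replicate 2). Il1b was at 135, 83.6 and 70.8 CPM in CS and 76.3, 34.7 and 21.8 CPM in SS-31H_CS (-1.13, SE 0.43, adjusted p = 0.236), with overlap from SS-31H_CS replicate 1. Its difference was -1.78 without that library, -0.81 when CS replicate 1 was left out and -0.80 when SS-31H_CS replicate 3 was. Il6 had 1 to 16 counts per library and was not tested. The neutrophil-attracting chemokine gene Cxcl2 was at 29.0 CPM in CS replicate 1, against 1.38 and 5.00 CPM in the other CS libraries and 0.35 to 1.41 CPM in SS-31H_CS (-3.98, SE 1.11, adjusted p = 0.145; -2.10 without CS replicate 1). Ccl20 was at 38.7 CPM in SS-31H_CS replicate 2 and at 0.12 to 0.95 CPM in the other 5 libraries (4.62, SE 1.70, adjusted p = 0.220; 0.00 without that library). Cxcl1 (0.98, adjusted p = 0.536; -0.44 without SS-31H_CS replicate 2), Ccl2 (-0.90, adjusted p = 0.480; 0.00 without CS replicate 3) and Ptgs2 (-0.53, adjusted p = 0.598; -0.12 or -1.13 with SS-31H_CS replicate 1 or 3 left out) overlapped between groups.

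Ccl22, Cd83 and Bcl2l1 were the 3 targets whose groups did not overlap, and none of them passed the threshold by edgeR. The dendritic cell chemokine gene Ccl22 was at 4.54, 3.09 and 1.61 CPM in CS and 4.55, 17.8 and 10.5 CPM in SS-31H_CS (1.82, SE 0.52, adjusted p = 0.152). CS replicate 1 and SS-31H_CS replicate 1 had 77 counts of Ccl22 each, so only the scaling of the libraries kept its groups apart. The activation marker Cd83 was at 11.4, 9.51 and 5.80 CPM in CS and 13.3, 25.1 and 17.2 CPM in SS-31H_CS (1.06, SE 0.30, adjusted p = 0.152). The anti-apoptotic gene Bcl2l1 was at 152, 183 and 371 CPM in CS and 127, 95.9 and 112 CPM in SS-31H_CS (-1.07, SE 0.31, adjusted p = 0.153; -0.59 without CS replicate 3). Nos2, the inducible nitric oxide synthase gene, was at 35.9, 10.3 and 23.8 CPM in CS and 12.8, 8.31 and 7.47 CPM in SS-31H_CS (-1.29, SE 0.42, adjusted p = 0.182; -0.85 without CS replicate 1). These 4 and Cxcl2 were the 5 targets called by DESeq2, and not by edgeR. Icam1, an adhesion molecule of endothelium and epithelium, was at 621, 583 and 897 CPM in CS and 590, 562 and 462 CPM in SS-31H_CS (-0.38, adjusted p = 0.333).

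Nfkbia is also a textbook glucocorticoid-responsive gene, so 14 other such genes were set beside it. All 14 had a negative log2 fold change (median -0.82), with 0 called by edgeR, 10 below an unadjusted p of 0.05 (18.2% of all genes) and 7 called by DESeq2 (5.59% of all genes). The groups did not overlap in 7 of 14, all lower in SS-31H_CS, where 12.4% of all genes were lower without overlap. Fkbp5 was at 80.7, 114 and 345 CPM in CS and 39.1, 38.9 and 31.3 CPM in SS-31H_CS (-2.30, adjusted p = 0.0994 by edgeR). Cdkn1a was at 101, 134 and 436 CPM in CS and 44.2, 44.2 and 44.0 CPM in SS-31H_CS (-2.34, adjusted p = 0.0994). When CS replicate 3 was left out, both passed the threshold with smaller differences, Fkbp5 at -1.42 (adjusted p = 0.0474) and Cdkn1a at -1.41 (adjusted p = 0.0241). Sgk1 (-0.95, adjusted p = 0.0728) and Klf9 (-0.62, adjusted p = 0.120) did not overlap either. CS replicate 3 was the highest library in 13 of the 14, with a mean relative log2 level of 1.19. How often it was the highest over all genes tested was not counted. CS replicate 3 was also the highest for Nfkbia, but SS-31H_CS replicate 2 was not high for the glucocorticoid-responsive genes (-0.50, beside 0.21 for Nfkbia). Whether the glucocorticoid response had a part in the level of Nfkbia was not tested.

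Immune cell markers moved between libraries as well. The 10 neutrophil markers summed to 2637 to 3718 CPM in CS and 570 to 3721 CPM in SS-31H_CS, with SS-31H_CS replicate 3 the lowest library in 9 of 10. The 10 T and NK cell markers summed to 48.5 to 128 CPM in CS and 93.6 to 222 CPM in SS-31H_CS, with SS-31H_CS replicate 2 the highest in 9 of 10 and CS replicate 3 the lowest in 10 of 10. The 10 monocyte and interstitial macrophage markers summed to 1266 to 1449 CPM in CS and 1452 to 1806 CPM in SS-31H_CS, where replicate 2 was highest and replicate 3 lowest. Apoe was the largest part of this sum, at 721 to 879 CPM in CS and 981 to 1111 CPM in SS-31H_CS. Of the 10, 2 were higher without overlap, against 13.6% of all genes, and 0 lower. The 10 alveolar macrophage markers summed to 1661 to 2088 CPM in CS and 781 to 1176 CPM in SS-31H_CS, without overlap. Chil3 was the largest part of this sum, at 1222 to 1629 CPM in CS and 429 to 794 CPM in SS-31H_CS. All 10 were lower in SS-31H_CS, 5 of them without overlap, against 12.4% of all genes. DESeq2 called 3 of them, against 5.59% of all genes, and edgeR 0, against 0.153%. Dendritic cell markers summed to 341 to 442 CPM in CS and 376 to 506 CPM in SS-31H_CS, with Cd24a the largest part of the sum (206 to 370 CPM). Of these 10 markers 4 were higher in SS-31H_CS without overlap, where 13.6% of all genes were. DESeq2 called 3, against 5.59% of all genes, and edgeR 0, against 0.153%. Like Ccl22 and Cd83 these 4 were higher in SS-31H_CS, and their part in the levels of those targets was not tested. Endothelium markers summed to 5526 to 7076 CPM in CS and 4334 to 5544 CPM in SS-31H_CS, and fibroblast markers to 3521 to 4587 CPM and 4697 to 5110 CPM. Inmt was the largest part of the fibroblast sum, at 1000 to 1946 CPM in CS and 1993 to 2579 CPM in SS-31H_CS. Of the 10 fibroblast markers, 2 were higher without overlap, against 13.6% of all genes. Only 1 was lower without overlap, against 12.4%, namely Pdgfra (457 to 486 CPM in CS and 261 to 300 CPM in SS-31H_CS). Airway epithelium markers were highest in SS-31H_CS replicate 3, the library lowest in the 6 NF-kB genes. Club cell markers summed to 25657 to 31217 CPM in CS and to 40750, 29384 and 66024 CPM in SS-31H_CS. All 10 were higher in SS-31H_CS, 4 of them without overlap, against 13.6% of all genes. By edgeR 1 was called, against 0.153% of all genes, and by DESeq2 4, against 5.59%. Ciliated cell markers summed to 427 to 601 CPM in CS and to 808, 873 and 1225 CPM in SS-31H_CS. All 10 were higher in SS-31H_CS without overlap, against 13.6% of all genes. DESeq2 called 9, against 5.59% of all genes, and edgeR 0, against 0.153%. None of the markers in this paragraph was at 0 in all libraries. How often each library was the highest or lowest over all genes tested was not counted. The part of these cell types in the variation of the NF-kB genes was not tested.

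Genes with a like pattern were sought for the 3 members of lowest p, by the mean absolute difference of centred log2 CPM over the 6 libraries among 15755 other genes. Nearest to Nfkbia were Tmem173 (0.03), which encodes the DNA-sensing adaptor STING, Aldh18a1 (0.04) and Nans (0.04), where the median gene differed by 0.27. Among the members, Nfkb2 (0.08) stood at rank 20 and Tnfaip3 (0.09) at rank 37 of likeness to Nfkbia, and Nfkbie (0.29) at rank 8870. Nearest to Nfkbiz were Zfpm1 (0.05), Trim6 (0.07) and Trim30a (0.08), and Nfkbia (0.11) stood at rank 24. Nearest to Nfkbie were Gpr65, Gm38244 and Cd52 (0.08 each), with Relb (0.21) at rank 141. With 6 libraries shared by all genes, such likeness describes these libraries alone.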

How the data were processed

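Lung RNA of 6 libraries was sequenced, 3 per group. The submitters' processing notes name HISAT2 2.0.1, GRCm38, HTSeq 0.6.1 and cutadapt 1.9.1. The annotation release, strand setting and filters are not given in the sources used here. For each Ensembl gene the authors deposited a raw read count and an FPKM per library. The FPKM followed the counts and library totals to within 0.242% over 3310 genes with more than 1000 counts in each library.

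Groups were compared by edgeR 4.0.16 (R 4.3.3; TMM, minimum count 10, minimum total 15, glmQLFTest, two-sided). Alternatives were other scalings and filters, DESeq2 1.42.0, limma 3.58.1 (voom, and trend on log2 FPKM), a replicate block, and leaving out each library. SE values are the log2 fold change divided by the square root of F. The fits were tested on simulated data. The members, lists and tests were chosen with earlier results of these data known. Named genes are the 10 members, fixed pathway and target genes, and those of lowest p in each list (6, 6 and 4), plus the nearest 3 genes to the 3 members of lowest p. Precision is limited by 3 libraries per group.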

Additional observations from a re-analysis of the deposited data

How the results depend on the processing

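The count of 0 among the 10 members held in all 17 alternative fits and at an adjusted p under 0.1. Of the other lists, DESeq2 called 1 pathway gene (Traf1), 5 targets and 7 of the 14 glucocorticoid-responsive genes. The fit without a low-count filter called 5 targets and, among the glucocorticoid-responsive genes, Fkbp5, Sgk1, Zbtb16, Cdkn1a, Klf9, Mt2, Errfi1 and Pdk4. Without CS replicate 3, Fkbp5 and Cdkn1a were called. The number of genes changed, 26, was 12 by library size alone, 648 without the filter, 948 by DESeq2, 6 by limma voom, 6 on log2(FPKM + 1) and 5 on log2(FPKM + 0.1) with a mean FPKM of at least 0.5, 4 on log2(FPKM + 1) without that filter and 299 at an adjusted p under 0.1. It ran from 1 to 15 with single libraries left out, the 15 being without CS replicate 3. With the replicate number as a block it was 0, and the block called 0 members. Same-numbered libraries did not deviate together (r = 0.01, 0.04 and -0.06 across genes, beside -0.10 to 0.07 for differently numbered ones). The labels name no batch, and with 3 libraries per group such correlations cannot show whether same-numbered libraries share one.

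With 1 library left out, the 2 left in its group are assumed to vary like the other 3. Among the members, log2 fold changes then ran from -0.13 to 0.0442 (Rela), -0.11 to 0.30 (Relb), -0.0361 to 0.0805 (Nfkb1), -0.26 to 0.11 (Nfkb2), -0.17 to 0.51 (Nfkbie), -0.31 to 0.0838 (Tnfaip3), -0.0168 to 0.11 (Ikbkb) and -0.15 to 0.14 (Chuk), each with both signs. Rela was also at 0.0006 by library size alone, 0.0021 on log2(FPKM + 1) with or without the filter and 0.0022 on log2(FPKM + 0.1). Among other named genes the sign turned for Ikbkg (-0.16 to 0.13), Nfkbib (-0.35 to 0.021), Ccl20 (-0.0025 to 5.19), Cxcl1 (-0.44 to 1.51) and Tnf (-0.41 to 0.83). The groups of 1 member (Nfkbiz) did not overlap without SS-31H_CS replicate 2 and of 2 (Nfkb1, Nfkbie) without SS-31H_CS replicate 3, against 36.7% and 33.1% of all genes. These numbers of members, and that of 0 (34.1%) without CS replicate 3, were added after seeing the data. In Nfkb1 the nearest libraries were CS replicate 1 (167.732 CPM, 2842 counts) and SS-31H_CS replicate 1 (167.752 CPM, 2838 counts). Only the scaling of the libraries kept its groups apart. The cause of these differences was not tested.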

Other observations

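Within each library, the FPKM of the inhibitor gene Nfkbia was set against that of its main target subunit Rela. The ratio was 2.66, 2.33 and 2.66 in the CS libraries and 2.10, 3.14 and 1.86 in the SS-31H_CS libraries, with SS-31H_CS holding both the highest and the lowest value. The ratio of the kinase genes Chuk and Ikbkb was 1.85, 1.68 and 2.15 in CS and 1.39, 1.80 and 2.43 in SS-31H_CS. Both ratios thus overlapped between the groups. The size of the Chuk to Ikbkb ratio depends on the length used, because these FPKM divide by all annotated exon bases. Per kilobase of the principal coding transcript the mean level of Ikbkb was above that of Chuk. The ratio therefore compares libraries and does not show which of these kinase genes had more mRNA.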
